A study of Mus musculus with 12 samples.

Results

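The genes described are 10 of the 24391 genes in the count files: 5 genes that canonical Wnt signalling is known to switch on (Axin2, Lef1, Tcf7, Notum and Dkk1) and 5 further secreted Wnt inhibitors (Dkk2, Sfrp1, Sfrp2, Frzb and Wif1). Notum and Dkk1 belong to both kinds, since each codes for a secreted inhibitor. They were chosen by name, with earlier results of these data known. All 10 were found and passed the low-count filter in every comparison, with at least 270 counts in every library. RNA was sequenced from the anterior palate of C57BL/6 mouse embryos collected on embryonic day 14.5 (E14.5) or on day 16.5 (E16.5). At each age 3 samples labelled wild type, called controls here, were compared with 3 samples labelled Shox2Cre; R26RFgf8, called mutants, in which Cre recombinase expressed where Shox2 is active switches on an Fgf8 transgene at the Rosa26 locus. Nothing in the labels tells if 1 embryo or several went into each sample, so p-values measure only the spread between these samples, and the whole tissue was sequenced, so fewer cells of a type and less RNA per cell cannot be told apart.

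In canonical Wnt signalling, a secreted Wnt protein binds a Frizzled receptor and an LRP co-receptor on the cell surface, which stops the destruction of beta-catenin. Beta-catenin then enters the nucleus and activates genes together with DNA-binding proteins of the TCF/LEF family. Secreted inhibitors act outside the cell: SFRP proteins and WIF1 bind Wnt proteins themselves, DKK proteins bind the LRP co-receptor, and the enzyme NOTUM removes the lipid that Wnt proteins need for activity. The pathway is known as a driver of palate growth, palate patterning and bone formation.

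The 250 bases before the RefSeq start sites of Dkk1 and Frzb (build GRCm38.p6, minus strand) are shown because Dkk1 changed at both ages and Frzb at E16.5 only among the comparisons of genotype. They lie at chr19:30549497-30549746 for Dkk1 and chr2:80447397-80447646 for Frzb and are printed 5′ to 3′, with capitals for the letters CTTTGAA or CTTTGAT, the core of the TCF/LEF motif, searched on both strands.
Dkk1: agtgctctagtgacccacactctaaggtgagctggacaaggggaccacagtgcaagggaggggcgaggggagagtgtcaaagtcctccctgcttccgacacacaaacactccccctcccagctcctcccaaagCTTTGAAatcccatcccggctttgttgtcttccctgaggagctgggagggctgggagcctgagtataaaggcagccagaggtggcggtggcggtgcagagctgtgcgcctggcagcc
Frzb: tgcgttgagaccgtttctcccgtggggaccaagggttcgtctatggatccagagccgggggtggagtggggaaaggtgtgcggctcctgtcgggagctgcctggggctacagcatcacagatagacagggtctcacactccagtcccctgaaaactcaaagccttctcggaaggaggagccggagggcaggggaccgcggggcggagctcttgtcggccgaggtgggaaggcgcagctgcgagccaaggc
Dkk1 held 1 match, CTTTGAA at bases -117 to -111 counted from the start site, and Frzb held none. The RefSeq table listed 12 start sites for 8 of the 10 genes, and Dkk1's was the 1 site with a match. Over all 32851 start sites of the table, 7.48% had a match in the same window. A match describes the letters in this window alone.

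Total counts ranged from 76417891 to 125996587 per library. Fgf8 was at 0.249 to 0.462 CPM (the count per gene scaled to library size with TMM factors) in the 6 control libraries and at 10.5 to 17.8 CPM in the 6 mutant libraries, with no overlap at either age. Shox2, the driver gene and a marker of the anterior palate, was present in every library, at 85.3 to 231 CPM. Every mutant library lay above every control at both ages. Controls had 179 ± 17.3 CPM and mutants 213 ± 16.8 CPM at E14.5 (edgeR, adjusted p = 0.0960). At E16.5 controls had 90.6 ± 5.93 CPM and mutants 139.8 ± 22.9 CPM (1.57-fold, edgeR, adjusted p = 0.00548). The part of this difference in the results was not tested. Summed over 10 osteoblast markers, controls lay at 7953 to 10199.7 CPM and mutants at 3116 to 3838 CPM at E14.5, and controls at 2784 to 3454 CPM and mutants at 709 to 964 CPM at E16.5. E16.5 mutant libraries 1 and 3 stood apart: 8 neuron markers summed to 286 and 169 CPM there, where mutant library 2 had 52.9 CPM and the controls had 48.0 CPM at most. Likewise 8 markers of neural retina and eye field summed to 139 and 82.4 CPM in these 2 libraries, against 14.1 CPM in library 2 and at most 34.2 CPM in the controls. Genotype results at E16.5 are also given without mutant libraries 1 and 3. Xist, the X-inactivation RNA, was lower in mutants at E14.5 (779.9 ± 76.9 CPM in controls against 486 ± 41.0 CPM) and higher at E16.5 (404 ± 71.4 CPM in controls against 899 ± 13.4 CPM, mean ± SD, n = 3). This gene was singled out after its values were seen, and the part of embryo sex in the results was not tested.

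**Figure D1:**
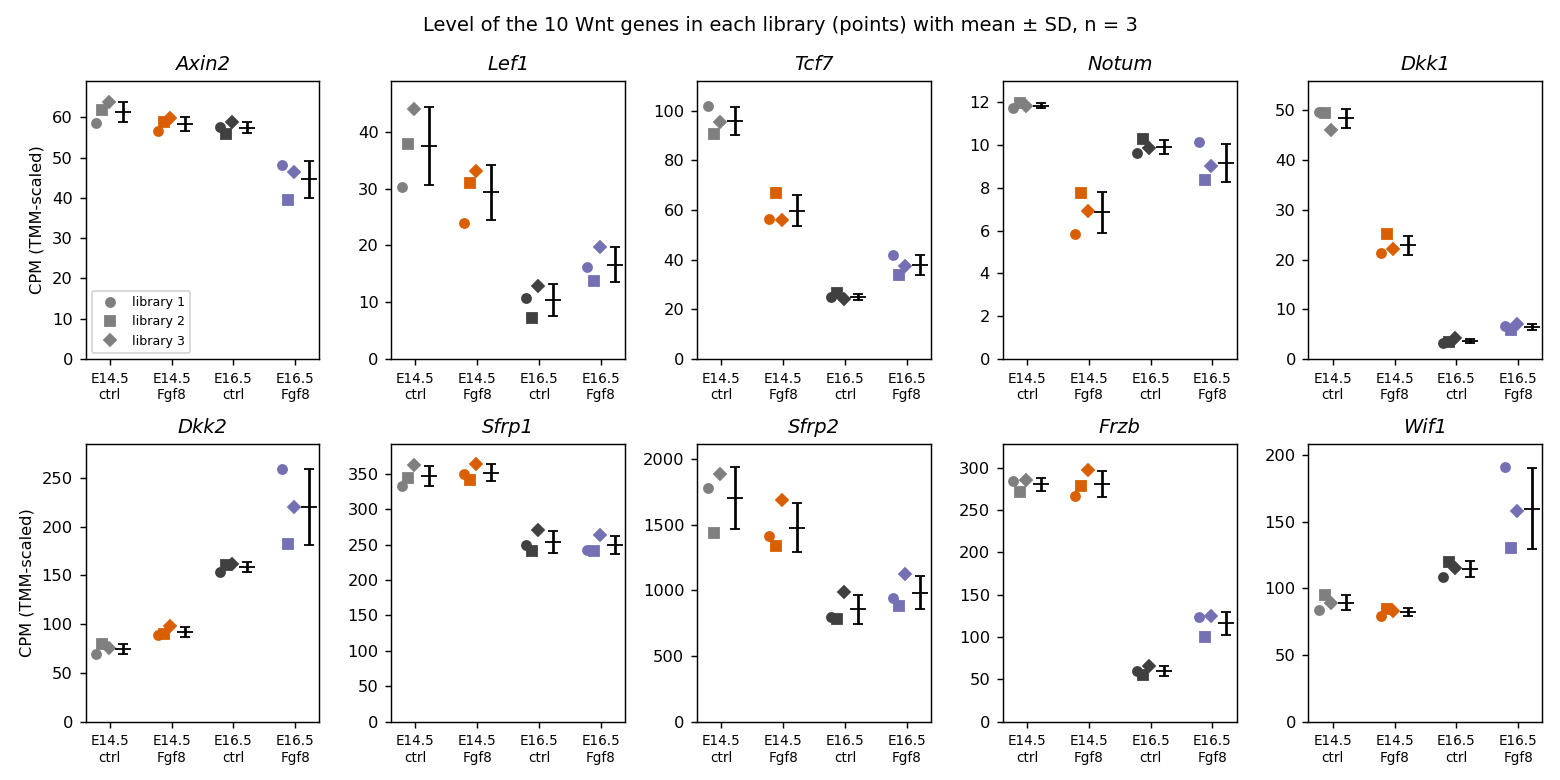
Level of each gene (vertical axis, TMM-scaled CPM, starting at 0) in every library of the 4 groups, with marker shape for the library number and bars for mean ± SD (n = 3). Tcf7 and Dkk1 fall into 4 separate ranges, E14.5 control highest and E16.5 control lowest, whereas Sfrp1 differs by age and overlaps between genotypes.

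At E14.5 the mutants had less RNA of 3 Wnt-induced genes, Dkk1, Notum and Tcf7, and slightly more of the inhibitor Dkk2. In all 4 of 10 genes passed the test, 3 lower and 1 higher, where 7.52% of all 16650 genes tested did so (4.57% lower and 2.95% higher). The median log2 fold change was -0.16 over the 10 genes and 0.01 over all genes. Axin2, the usual reporter of the pathway, was not among the called genes. Tests are edgeR's quasi-likelihood test with Benjamini-Hochberg adjustment over all genes tested. A gene is called at an adjusted p under 0.05. SE is derived from this test, as the size of the log2 fold change divided by the square root of its F statistic.

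Dkk1 codes for a secreted blocker of the LRP co-receptor. E14.5 control libraries 1, 2 and 3 had 49.7, 49.4 and 46.1 CPM of it, where mutant libraries 1, 2 and 3 had 21.4, 25.1 and 22.2 CPM. Every mutant library lay below every control library, and the level fell 2.11-fold (log2 fold change -1.08, SE 0.07, adjusted p = 1.74e-05). Notum, the Wnt-inactivating enzyme, was at 11.7, 11.9 and 11.8 CPM in controls and 5.85, 7.77 and 6.91 CPM in mutants. These groups did not overlap either, and the fall was 1.73-fold (log2 fold change -0.79, SE 0.11, adjusted p = 0.00227). Tcf7, a TCF/LEF transcription factor, was at 102, 90.5 and 95.5 CPM in controls and 56.2, 66.9 and 56.1 CPM in mutants. It fell 1.60-fold with no overlap (log2 fold change -0.68, SE 0.08, adjusted p = 0.000676).

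The other TCF/LEF gene, Lef1, measured 30.4, 37.9 and 44.1 CPM in controls, where mutants had 24.0, 31.0 and 33.2 CPM, and the ranges overlap. It did not pass the test (log2 fold change -0.35, SE 0.14, adjusted p = 0.173). Axin2, a scaffold of the beta-catenin destruction complex that acts as feedback inhibitor, was at 58.7, 61.7 and 63.7 CPM in controls and 56.5, 58.9 and 59.9 CPM in mutants (log2 fold change -0.07, SE 0.06, adjusted p = 0.505). Its ranges overlap, and the difference is about as large as its standard error.

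Of the inhibitors not counted among the induced genes, Dkk2, a DKK family member that can block or weakly activate the co-receptor, was the 1 gene called at E14.5. Its level was 69.1, 79.2 and 75.5 CPM in controls and 88.7, 90.1 and 98.0 CPM in mutants, without overlap (1.24-fold, log2 fold change 0.31, SE 0.07, adjusted p = 0.0201). This call was the weakest of the 4 and was lost when control library 1 (adjusted p = 0.0758) or 3 (0.0646), or mutant library 1 (0.0539) or 2 (0.0575), was left out, and in a fit of all 12 samples (0.113).

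The Wnt-binding inhibitors overlapped between the E14.5 groups. Sfrp1 was at 333, 345 and 362 CPM in controls and 350.1, 341 and 364 CPM in mutants (log2 fold change 0.02, SE 0.06, adjusted p = 0.873). Sfrp2 was at 1778, 1439 and 1887 CPM in controls and 1409.9, 1334 and 1685 CPM in mutants (log2 fold change -0.21, SE 0.11, adjusted p = 0.304). Frzb, also known as Sfrp3, was at 284, 272 and 286 CPM in controls and 267, 279 and 298 CPM in mutants (log2 fold change 0.0028, SE 0.06, adjusted p = 0.985). Wif1 was at 83.8, 95.3 and 88.7 CPM in controls and 79.1, 84.7 and 83.4 CPM in mutants (log2 fold change -0.11, SE 0.06, adjusted p = 0.292). Of these, Sfrp2 had the widest spread within its groups and Frzb the smallest difference between them.

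Beside these results, all 10 osteoblast markers and 4 of 5 endothelial markers were lower in the E14.5 mutants. Their part in the Wnt gene results was not tested. Lef1 and Tcf7 are also genes of T cells. At E14.5 the 6 T cell markers summed to 5.87 to 7.60 CPM in controls and 7.40 to 8.97 CPM in mutants. Among them Cd3e had 0 counts in all control libraries, and Cd3e, Cd3d and Cd8a had 0 in all mutant libraries, while the other markers were detected. The part of T cells in the Lef1 and Tcf7 results was not tested.

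At E16.5 most of the set was higher in the mutants. Frzb, Dkk1, Lef1, Tcf7, Wif1 and Dkk2 rose by 1.41-fold to 1.96-fold, and Axin2 was lower. In all 7 of 10 genes passed the test, 6 higher and 1 lower, where 27.9% of 17169 genes did (12.2% higher and 15.7% lower). The median log2 fold change was 0.51 over the 10 genes and 0.01 over all genes. Leaving out mutant libraries 1 and 3, Axin2, Dkk1, Frzb and Tcf7 were called and Lef1, Dkk2 and Wif1 were not, in a fit that called 14.1% of all genes (4.12% higher and 9.98% lower) and assumes that the lone mutant library varies like the controls. Markers of nasal and ciliated epithelium moved with genotype at this age too: 4 of 6 were lower in mutants, with sums of 1344 to 1499 CPM in controls and 559 to 989 CPM in mutants. Endothelial markers were higher in 5 of 5 cases, with sums of 189.5 to 205 CPM in controls and 266 to 344 CPM in mutants. The part of these cells in the results was not tested.

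**Figure D2:**
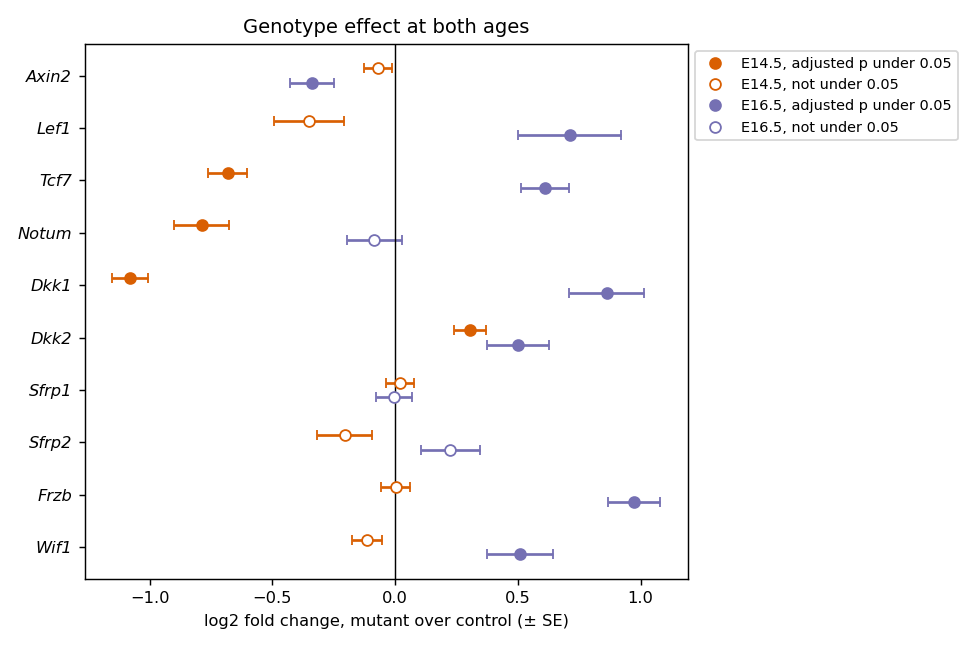
Genotype effect on each gene at E14.5 and E16.5, with 3 against 3 libraries at each age. The horizontal axis gives the log2 fold change of mutant over control with the SE derived from the test. Points are filled where the adjusted p was under 0.05. Dkk1 moves from -1.08 to 0.86 and Tcf7 from -0.68 to 0.61, and Sfrp1 stays at 0.02 and -0.0035.

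Among the Wnt-induced genes, Dkk1 was at 3.22, 3.51 and 4.15 CPM in E16.5 controls and 6.57, 5.82 and 7.06 CPM in mutants. The ranges did not overlap, and the level rose 1.82-fold (log2 fold change 0.86, SE 0.15, adjusted p = 0.00409). Tcf7 was at 24.8, 26.5 and 24.1 CPM in controls and 41.8, 33.7 and 37.6 CPM in mutants, again without overlap (1.53-fold, log2 fold change 0.61, SE 0.10, adjusted p = 0.00244). Both calls held without mutant libraries 1 and 3, with log2 fold changes of 0.69 for Dkk1 (adjusted p = 0.0455) and 0.43 for Tcf7 (adjusted p = 0.0303).

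Lef1 was at 10.8, 7.29 and 12.9 CPM in E16.5 controls and 16.3, 13.8 and 19.8 CPM in mutants. The highest control lay just under the lowest mutant, and the rise was 1.64-fold (log2 fold change 0.71, SE 0.21, adjusted p = 0.0357). It was not called without control library 1 (adjusted p = 0.0881) or 2 (0.0878), mutant library 1 (0.0726) or 3 (0.104), or mutant libraries 1 and 3 together (log2 fold change 0.42, adjusted p = 0.299). At this age the 6 T cell markers summed to 5.06 to 5.73 CPM in controls and 4.52 to 6.14 CPM in mutants, and their part in the Lef1 and Tcf7 results was not tested.

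Unlike Dkk1, Tcf7 and Lef1, Axin2 was lower in the mutants, at 57.7, 55.9 and 58.7 CPM in E16.5 controls and 48.1, 39.5 and 46.3 CPM in mutants. Each mutant library was below each control, and the level fell 1.26-fold (log2 fold change -0.34, SE 0.09, adjusted p = 0.0227). Without mutant libraries 1 and 3 the fall was larger, at -0.53 (adjusted p = 0.00631), and without control library 1 (adjusted p = 0.0758), 2 (0.0571) or 3 (0.0537) it was not called. Notum was at 9.60, 10.3 and 9.85 CPM in controls and 10.1, 8.37 and 9.01 CPM in mutants, which overlap (log2 fold change -0.08, SE 0.11, adjusted p = 0.618). Without mutant libraries 1 and 3 its value was -0.24 (adjusted p = 0.339).

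Frzb had the highest fold change of the set at E16.5. It was at 59.7, 54.9 and 66.0 CPM in controls and 123, 101 and 124 CPM in mutants, a rise of 1.96-fold without overlap (log2 fold change 0.97, SE 0.11, adjusted p = 0.000286). Leaving out mutant libraries 1 and 3 gave 0.75 (adjusted p = 0.0012). Frzb is also known from cartilage, and of 7 cartilage markers 5 were higher in the E16.5 mutants and 0 lower, with sums of 93.6 to 116 CPM in controls and 457 to 645 CPM in mutants. Cartilage markers were also higher in 5 of 7 cases at E14.5 (108 to 149 against 289 to 310 CPM, 310.5 at most), where Frzb was level between the groups. The part of cartilage in the Frzb result was not tested.

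Dkk2 and Wif1 rose with an unequal size in the 3 mutant libraries. Dkk2 was at 153, 161 and 162 CPM in E16.5 controls, where mutants had 259, 182 and 219.9 CPM (1.41-fold, log2 fold change 0.50, SE 0.13, adjusted p = 0.0196). Wif1, which binds Wnt proteins and is known from bone-forming cells, was at 108, 119.97 and 115 CPM in controls, where mutants had 191, 131 and 158 CPM (1.42-fold, log2 fold change 0.51, SE 0.13, adjusted p = 0.0235). For both genes the order of the mutant libraries was 1, 3, 2 from high to low, the order of the neuron and retina sums. Tcf7, Notum and Axin2 had this order too, and mutant library 2 was the lowest mutant library for every gene of the set. For Dkk2 and Wif1 library 2 stood 1.15-fold and 1.14-fold over the control mean. Without mutant libraries 1 and 3 the log2 fold changes were 0.20 for Dkk2 (adjusted p = 0.213) and 0.20 for Wif1 (adjusted p = 0.2495), so neither was called and both values dropped by over 1.5 times. Dkk2 was also not called without control library 1 (adjusted p = 0.0772) or 2 (0.0654), nor Wif1 without control library 1 (0.0905), 2 (0.0615) or 3 (0.0565). The part of neural and retinal RNA in these values was not tested.

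**Figure D3:**
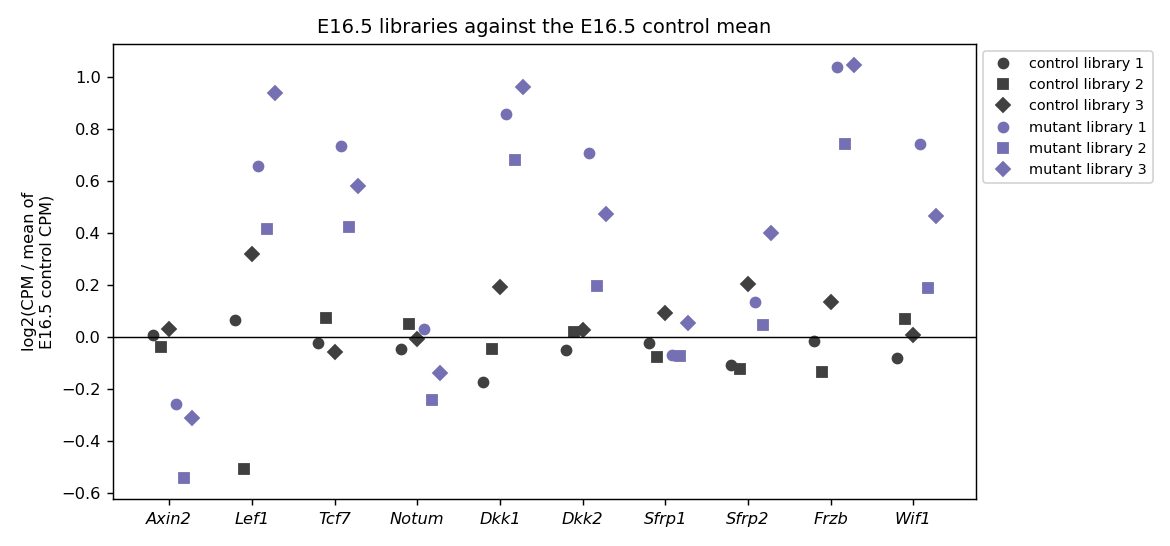
Each E16.5 library against the mean of the 3 E16.5 controls (vertical axis, log2 ratio of CPM), with colour for genotype and shape for the library number. Mutant library 2 is the lowest mutant library for every gene shown, those that rose and those that did not. For Dkk2 and Wif1 its log2 ratio is 0.20 and 0.19, against 0.71 and 0.74 in library 1.

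Sfrp1 and Sfrp2 did not pass the test at E16.5. Sfrp1 was at 249.7, 241 and 271 CPM in controls and 242, 242 and 264 CPM in mutants, which overlap (log2 fold change -0.0035, SE 0.07, adjusted p = 0.979). Sfrp2 was at 794, 784 and 985 CPM in controls and 939, 882 and 1126 CPM in mutants, which also overlap (log2 fold change 0.23, SE 0.12, adjusted p = 0.196). In both groups the library numbered 3 was the highest for Sfrp2. A fit with the replicate number as a block called Sfrp2 (log2 fold change 0.23, adjusted p = 0.00613). So did a fit with a term for replicates numbered 3 (log2 fold change 0.23, adjusted p = 0.0103). The numbers may pair the samples at this age, but the main test used neither term. Without mutant libraries 1 and 3 the unblocked value for Sfrp2 was 0.05 (adjusted p = 0.8499) and that for Sfrp1 was -0.06 (adjusted p = 0.754).

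The genotype effect differed between the ages for 6 of the 10 genes, all with the more positive effect at E16.5, where 22.3% of 17550 genes did (9.97% in that direction). The difference was tested as an interaction in 1 fit of all 12 libraries, and it uses the same libraries as the comparisons within each age. It was 1.92 for Dkk1 on the log2 scale (SE 0.15, adjusted p = 6.35e-06) and 1.27 for Tcf7 (SE 0.13, adjusted p = 3.41e-05), the 2 genes called in opposite directions at the 2 ages. Lef1 differed by 1.04 (SE 0.29, adjusted p = 0.0219), Frzb by 0.95 (SE 0.12, adjusted p = 0.000207), Notum by 0.68 (SE 0.15, adjusted p = 0.00705) and Wif1 by 0.60 (SE 0.15, adjusted p = 0.0141).

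For the other 4 genes the difference between ages was not called. It was -0.29 for Axin2 (adjusted p = 0.0520), 0.41 for Sfrp2 (adjusted p = 0.139), 0.17 for Dkk2 (adjusted p = 0.465) and -0.05 for Sfrp1 (adjusted p = 0.755). With the replicate number as a block, Axin2 (adjusted p = 0.0205) and Sfrp2 (0.00131) were called, and DESeq2 also called Axin2 (0.0366). Without E16.5 mutant libraries 1 and 3 the difference was 1.79 for Dkk1, 1.13 for Tcf7, 0.76 for Frzb and -0.45 for Axin2. It was 0.79 for Lef1, 0.57 for Notum and 0.33 for Wif1. In this smaller fit Lef1, Notum and Wif1 lost their calls, and Axin2 was newly called. The share of all genes called is not given for it. The lost calls therefore cannot be told apart from a general loss of calls with fewer samples. Lef1 was also not called without E14.5 control library 3 (adjusted p = 0.0579) or E14.5 mutant library 1 (0.0509). Axin2 was called without E16.5 mutant library 1 (adjusted p = 0.0337), and Sfrp2 without E14.5 control library 2 (adjusted p = 0.0426).

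From E14.5 to E16.5 the controls lost most of their Dkk1 RNA, with 48.4 ± 1.99 CPM at the earlier age and 3.63 ± 0.476 CPM at the later (log2 fold change -3.74, SE 0.11, adjusted p = 1.87e-11). In controls 6 genes fell and 2 rose, where 66.4% of 17550 genes changed with age (32.1% lower and 34.3% higher). Frzb fell from 281 ± 7.73 to 60.2 ± 5.60 CPM, Tcf7 from 95.9 ± 5.61 to 25.1 ± 1.21 CPM and Lef1 from 37.4 ± 6.88 to 10.3 ± 2.84 CPM. Sfrp2 fell from 1702 ± 234 to 854 ± 113 CPM and Sfrp1 from 347 ± 14.6 to 254 ± 15.5 CPM. The 2 that rose were Dkk2, from 74.6 ± 5.10 to 159 ± 4.79 CPM, and Wif1, from 89.2 ± 5.75 to 114 ± 5.91 CPM. Axin2 (log2 fold change -0.10, adjusted p = 0.249) and Notum (log2 fold change -0.26, adjusted p = 0.0508) did not pass the test. For Notum every E16.5 control lay below every E14.5 control, and 11 alternatives called the fall, among them DESeq2 (adjusted p = 0.0336) and limma-voom (0.0338), and 12 did not. Tissue makeup moved with age as well, since markers of oral and basal epithelium summed to 953 to 1593 CPM in E14.5 controls and 10816 to 11261 CPM in E16.5 controls, and those of nasal and ciliated epithelium to 128 to 199.7 CPM and 1344 to 1499 CPM. In mutants the oral and basal sums went from a range of 1613 to 1681 CPM to one of 6776 to 11532 CPM. The part of this change in the results with age was not tested.

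In the mutants all 10 genes changed with age, 7 lower and 3 higher, where 51.6% of 17550 genes did (24.4% lower and 27.2% higher). Dkk1 fell from 22.9 ± 1.92 to 6.49 ± 0.623 CPM (log2 fold change -1.82), Frzb from 281 ± 15.5 to 116 ± 13.4 CPM and Tcf7 from 59.7 ± 6.21 to 37.7 ± 4.04 CPM. Lef1 fell from 29.4 ± 4.80 to 16.6 ± 3.02 CPM, Sfrp2 from 1476 ± 185 to 982 ± 128 CPM and Sfrp1 from 352 ± 11.6 to 249 ± 12.5 CPM. Axin2 fell from 58.4 ± 1.74 to 44.6 ± 4.56 CPM (log2 fold change -0.39, adjusted p = 0.000505). The 3 that rose were Dkk2, from 92.3 ± 5.01 to 220.3 ± 38.8 CPM, Wif1, from 82.4 ± 2.94 to 159.8 ± 30.3 CPM, and Notum, from 6.84 ± 0.958 to 9.17 ± 0.887 CPM (log2 fold change 0.42, adjusted p = 0.00554). The Notum rise was not called without E16.5 mutant libraries 1 and 3 (log2 fold change 0.32, adjusted p = 0.104).

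Set in order over the 4 groups, Tcf7 and Dkk1 each gave 4 ranges that did not overlap: E14.5 control, E14.5 mutant, E16.5 mutant and E16.5 control, from high to low. Frzb and Sfrp2 were high in both E14.5 groups, which overlap, and lower at E16.5. Lef1 followed the order of Tcf7 with overlap between the E14.5 groups. Dkk2 gave the order E14.5 control, E14.5 mutant, E16.5 control and E16.5 mutant from low to high, with no overlap between neighbours. Notum was lowest in the E14.5 mutants, at 5.85 to 7.77 CPM, and Axin2 was lowest in the E16.5 mutants, at 39.5 to 48.1 CPM.

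The genes nearest in pattern were sought among 12834 other genes, by the root mean square difference of log2 CPM over the 12 libraries after each gene was centred on its own mean. Those nearest to Dkk1 were Ambn, the enamel matrix protein ameloblastin (0.30), and the homeobox gene En1 (0.31), against a spread of 1.47 for Dkk1 around its own mean. Frzb lay nearest to Fads2 (0.10) and Nkain1 (0.12), with its own spread at 0.94, and Tcf7 nearest to Cd200 (0.14) and Nrgn (0.16), with its own spread at 0.73. Nearest to Wif1 were Thy1 (0.09) and Dio3os (0.11), and to Dkk2 C1qtnf2 (0.14) and Sparcl1 (0.15). Within the set, Tcf7 and Lef1 were nearest to each other (0.31), as were Dkk2 and Wif1 (0.30).

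Ctnnb1, which codes for beta-catenin, set the E14.5 controls apart from all other libraries. The 3 libraries of that group had 212, 231 and 262 CPM of it, and the remaining libraries 1567 to 1873 CPM. The genotype effect was 2.97 on the log2 scale at E14.5 (7.82-fold, SE 0.08, adjusted p = 1.09e-07) and -0.11 at E16.5 (SE 0.07, adjusted p = 0.238). Axin2 over those same E14.5 groups had 61.4 ± 2.51 CPM in controls and 58.4 ± 1.74 CPM in mutants. Of 31 genes of intracellular transduction, from the Dishevelled proteins to the destruction complex and co-activators, Ctnnb1 was the 1 that rose at E14.5, where 7.52% of all genes were called. The 1 that fell was Cxxc5, an inhibitor that binds Dishevelled, with 42.5 ± 0.997 CPM in controls and 35.9 ± 1.21 CPM in mutants.

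At E16.5 this transduction list had 4 genes higher and 1 lower of 31, and 1 and 1 without mutant libraries 1 and 3, where 27.9% and 14.1% of all genes were called. Tle2, a Groucho-type co-repressor, rose from 21.0 ± 2.24 to 39.4 ± 5.92 CPM and Cby1, an antagonist of beta-catenin, fell from 62.3 ± 6.78 to 38.0 ± 4.50 CPM, both also called without those libraries. Apc2, a relative of the destruction complex scaffold APC known from neurons, was at 28.9, 11.0 and 23.2 CPM in mutant libraries 1, 2 and 3 and 8.39 ± 1.07 CPM in controls. It was called in the full set (adjusted p = 0.0122) but not without libraries 1 and 3 (adjusted p = 0.145). Cxxc5 was at 53.3, 29.5 and 43.7 CPM in the mutants and 23.7 ± 1.60 CPM in controls (adjusted p = 0.0118, and 0.109 without libraries 1 and 3). Both Apc2 and Cxxc5 have their order of mutant libraries in common with the neuron sums. The part of neural RNA in the Apc2 and Cxxc5 values was not tested.

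Of 21 other genes known to respond to canonical Wnt signalling, 2 rose and 6 fell at E14.5, where 2.95% and 4.57% of all genes did. Wisp1, which codes for a matricellular protein, fell by 0.72 on the log2 scale, with 132 ± 16.7 CPM in controls and 80.4 ± 8.64 CPM in mutants (adjusted p = 0.00216), and Bambi, a decoy receptor of BMP and TGF-beta, fell too, with 41.6 to 44.3 CPM in controls and 27.3 to 32.6 CPM in mutants (adjusted p = 0.0053). The 2 that rose were Myc, a growth-promoting transcription factor, from 24.0 ± 6.80 to 88.5 ± 2.52 CPM (log2 fold change 1.89, adjusted p = 0.000108), and Lgr5, an R-spondin receptor, from 22.1 ± 0.242 to 35.0 ± 2.68 CPM (adjusted p = 0.000351). The list's median log2 fold change was -0.16, against 0.01 over all genes.

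At E16.5 the same list had 6 genes higher and 1 lower, where 27.9% of all genes were called, and a median of 0.21 against 0.01 over all genes. Myc rose from 38.8 ± 0.924 to 107.5 ± 24.8 CPM and Lgr5 from 15.7 ± 3.01 to 30.6 ± 3.98 CPM, both also called without mutant libraries 1 and 3. Sp5, a zinc finger factor downstream of Wnt, was at 0.629 ± 0.148 and 1.35 ± 0.271 CPM (adjusted p = 0.0205, and 0.248 without those libraries). Edar, the ectodysplasin receptor of epithelial placodes, was at 2.85 ± 0.337 and 4.30 ± 0.0679 CPM (adjusted p = 0.0222, and 0.123 without them). In that smaller fit, where 14.1% of all genes were called, the list had 2 genes higher, 1 lower and a median of 0.06.

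**Figure D4:**
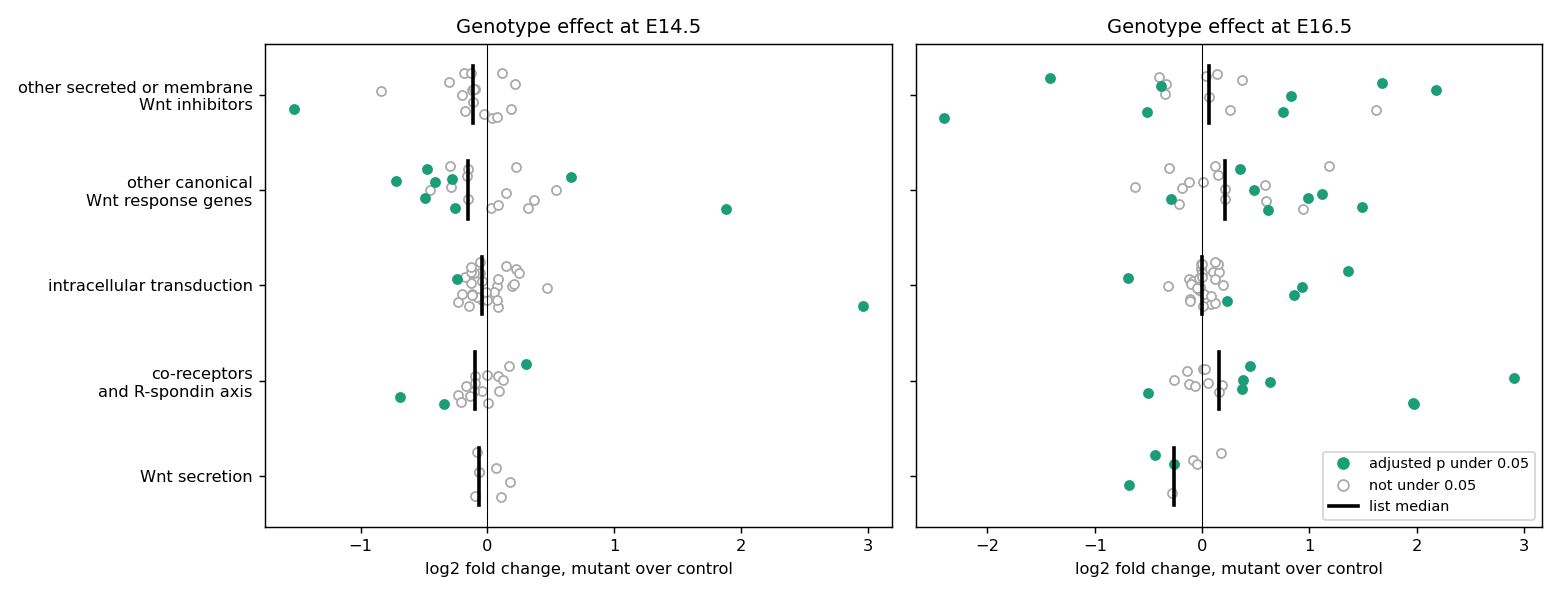
Genotype effect on the other pathway genes at E14.5 (left) and E16.5 (right), 1 point per gene by list (horizontal axis, log2 fold change of mutant over control), filled where the adjusted p was under 0.05, with a bar for the list median. At E14.5 the rightmost point is Ctnnb1 at 2.97 and most genes lie near 0, and at E16.5 the co-receptor and R-spondin list has 7 genes higher and 1 lower.

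Of 17 other inhibitors at the cell surface or outside it, Cer1 was the 1 called at E14.5, as lower, where 7.52% of all genes were called. It was named after its result was seen. At E16.5 4 rose and 4 fell, where 27.9% of all genes were called, and 2 and 2 without mutant libraries 1 and 3, where 14.1% were. Dkkl1, a DKK-like gene, fell by 1.42 on the log2 scale, with 13.3 ± 1.82 CPM in controls and 4.93 ± 0.720 CPM in mutants (adjusted p = 0.000221), and Trabd2b, a protease that inactivates Wnt proteins, rose from 10.5 ± 0.782 to 17.3 ± 1.19 CPM (adjusted p = 0.000771). Draxin, an axon guidance protein that antagonises Wnt, was at 6.53, 1.12 and 4.24 CPM in mutant libraries 1, 2 and 3 against 0.899 ± 0.157 CPM in controls, and was not called without libraries 1 and 3 (adjusted p = 0.631). Sfrp4 was at 8.29, 4.28 and 5.98 CPM in the mutants against 3.56 ± 0.486 CPM in controls, and likewise not called without them (adjusted p = 0.469).

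Among 17 co-receptors, R-spondins and their receptors, 1 rose and 2 fell at E14.5, where 7.52% of all genes were called. Rspo1, a secreted amplifier of Wnt signalling, fell from 66.0 ± 1.91 to 40.8 ± 1.53 CPM (log2 fold change -0.69, adjusted p = 6.66e-05), and the co-receptor Lrp5 fell from 269 ± 19.5 to 213 ± 10.5 CPM (adjusted p = 0.0155). At E16.5 7 rose and 1 fell, with 27.9% of all genes called, and 4 and 1 without mutant libraries 1 and 3, with 14.1% called. Ror2, a receptor for Wnt5a, rose from 45.3 ± 3.87 to 175 ± 24.9 CPM (log2 fold change 1.97, adjusted p = 9.16e-06), with 147, 192 and 187 CPM in mutant libraries 1, 2 and 3. Rspo2 was at 12.3, 5.17 and 8.11 CPM in the mutants against 2.23 ± 0.419 CPM in controls (log2 fold change 1.96, adjusted p = 0.00224, and 1.22, adjusted p = 0.00649, without libraries 1 and 3). Rspo1 was lower again, from 29.4 ± 1.60 to 20.4 ± 0.666 CPM.

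A list drawn up for Wnt secretion held 7 genes, with a median log2 fold change of -0.06 at E14.5 and -0.26 at E16.5. The 3 called at E16.5, Porcn, Tmed2 and Wdyhv1, all fell, where 27.9% of all genes were called. Wdyhv1 is not known for the lipid modification or export of Wnt proteins, so the list is wider than these roles. Without mutant libraries 1 and 3 the median at E16.5 was -0.21. Porcn, the enzyme that adds the lipid that NOTUM removes, fell from 22.5 ± 2.01 to 16.2 ± 1.69 CPM at E16.5 (adjusted p = 0.0192). Of 27 tested Wnt ligands and Frizzled receptors, 2 were higher and 2 lower at E14.5, where 7.52% of all genes were called. At E16.5 7 were higher and 3 lower, where 27.9% of all genes were called, and 5 and 1 of 28 tested without mutant libraries 1 and 3, where 14.1% were.

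In the authors' deposited table for E14.5, made with DESeq2, Dkk1 (log2 fold change -1.01), Notum (-0.69), Tcf7 (-0.64) and Dkk2 (0.29) had an adjusted p under 0.05. In the authors' deposited table for E16.5 it was Frzb (0.96), Dkk1 (0.83), Lef1 (0.67), Tcf7 (0.60), Wif1 (0.50), Dkk2 (0.49) and Axin2 (-0.33). These are the genes called here at each age.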

How the data were processed

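Per the submitters' processing notes, reads were aligned to mm9 with HISAT2 and counted with featureCounts, and DESeq2 was used. Versions, annotation and strand setting are not given in the sources used here, so reads of an antisense gene (5 of the 10 genes have one in GENCODE M21) cannot be told apart. The authors deposited raw counts per gene symbol for each sample, and tables of log2 fold changes and adjusted p-values. Another 24 columns with values by sample were left aside. Models of the counts were run in edgeR 4.0.16 under R 4.3.3 (TMM, filterByExpr, quasi-likelihood test), by genotype within each age on 6 samples and by age and interaction on all 12. CPM are TMM-scaled over 12 libraries. The genotype fits within each age were tried on simulated counts with the same spread setting for every gene. The simulation held no trait shared by samples numbered 3 and no neural RNA in single libraries, so it does not cover these. The 10 genes, the pathway and marker lists and the alternatives were chosen with earlier results of these data known. Named pathway genes are up to 4 called genes per list and age with the largest change and a mean log2 CPM of at least 1 (prior count 2) and Ctnnb1, Fgf8 and Shox2. Nearest genes are the 2 closest. Alternatives used RLE and upper-quartile factors, DESeq2 1.42.0, limma-voom (limma 3.58.1), other filters (none, or 5 CPM in 3 samples), a replicate block, a term for replicates numbered 3, replicates 1 and 2 alone, other sets of samples, and each library left out.

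Deviations from the group mean were compared between samples sharing a number, over the 13463 genes whose log2 CPM averaged more than 1. At E16.5 they correlated at 0.196, 0.241 and 0.695 for numbers 1, 2 and 3, so the numbers were taken as possible pairs there. At E14.5 they gave 0.0783, 0.127 and 0.559, and were not so taken. Across ages the controls gave 0.149, 0.236 and 0.56 and the mutants 0.0566, 0.0865 and 0.61. Number 3 gave the highest value in each of these comparisons, also across ages. A trait shared by the samples numbered 3 and a pairing of samples cannot be told apart here. The lowest count of any of the 10 genes in a library was 270.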

Additional observations from a re-analysis of the deposited data

Results flagged for a closer look

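For 6 of the 10 genes the genotype effect at E16.5 differed from that at E14.5, where 22.3% of 17550 genes did. The test was the interaction test in edgeR over all 12 libraries, with adjusted p under 0.05. On the log2 scale the effect at E16.5 minus that at E14.5 was 1.92 for Dkk1, 1.27 for Tcf7, 1.04 for Lef1, 0.95 for Frzb, 0.68 for Notum and 0.60 for Wif1. Groups of 3 libraries are too small for a test of single outlying libraries, so fits that leave libraries out were run instead. Without E16.5 mutant libraries 1 and 3 the differences were 1.79 for Dkk1, 1.13 for Tcf7 and 0.79 for Lef1. For Frzb, Notum and Wif1 they were 0.76, 0.57 and 0.33. The calls that changed are given above. Beside these differences, osteoblast markers were lower in the mutants at both ages (10 of 10 at E14.5 and 9 of 10 at E16.5), endothelial markers were lower at E14.5 (4 of 5) and higher at E16.5 (5 of 5), and cartilage markers were higher at both ages (5 of 7 at each). At E16.5 neuron (6 of 8) and retina and eye field markers (5 of 8) were higher. Nasal and ciliated epithelium had 1 of 6 markers higher at E14.5 and 4 of 6 lower at E16.5. Of all genes tested, 7.52% were called at E14.5 and 27.9% at E16.5. The part of these cell types in the differences was not tested.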

How the results depend on the processing

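Over 50 combinations of gene and comparison, 29 kept their direction and their side of the threshold under each alternative run, and no called gene changed direction. The count of genes called at E16.5, 7, fell to 3 with replicates 1 and 2 alone and 4 without mutant libraries 1 and 3, and lay between 3 and 7 with 1 library left out, being 3 without control library 1 or 2. The count for the difference between ages, 6, fell to 3 with replicates 1 and 2 alone. Each of these fits used fewer samples, and the share of all genes called is not set beside these counts. The falls cannot be told apart from a general loss of calls with fewer samples. In the fit with the replicate number as a block, Lef1 (-0.35, adjusted p = 0.00279) and Sfrp2 (-0.20, adjusted p = 0.0193) were called at E14.5, where the samples share only a number and 2 of 6 correlated best with their own, Sfrp2 at E16.5 (adjusted p = 0.00613), and Axin2 (-0.29, adjusted p = 0.0205) and Sfrp2 (0.41, adjusted p = 0.00131) for the difference between ages. The block changed no other call. A term for replicates numbered 3 called Lef1 at E14.5 (adjusted p = 0.0468) and Sfrp2 at E16.5 (0.0103). For the difference between ages that term called Axin2 (adjusted p = 0.0223) and Sfrp2 (0.00513), and for age in controls Notum (0.0475). Log2 fold changes near 0 that were not called changed sign. Frzb at E14.5 was -0.000879 with RLE factors, -0.000848 with DESeq2, -0.0261 with replicates 1 and 2 alone and -0.0401 to 0.0352 without 1 library. Sfrp1 at E14.5 was -0.00791 to 0.0529 without 1 library. Sfrp1 at E16.5 was 5.3e-06 with RLE factors, 0.0224 with upper-quartile factors, 0.00251 with replicates 1 and 2 alone and -0.042 to 0.0403 without 1 library. The difference between ages was -0.0802 to 0.0272 for Sfrp1 without 1 library and -0.0864 for Dkk2 without E16.5 mutant libraries 1 and 3.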
